A study of Rattus norvegicus with 2 samples.

Results

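S100a8, S100a9, S100a4 and S100a6 are 4 of the 22154 genes listed over both count tables of the rat zygomatic maxillary suture, the fibrous joint between cheek bone and upper jaw. They were chosen by name and are described in every cell type that marker genes could gate. The distraction library came from 4-week-old rats whose suture was pulled for 7 days by a W-shaped distractor of 0.4 mm nickel-titanium wire with 20 g of initial force. The sham library came from 4-week-old rats in which the holes were drilled and no distractor was placed. Sham samples were likewise taken at 7 days, and the anaesthesia with chloral hydrate, the surgery that exposes the bone and the drilling are described for both groups. The labels give neither strain nor sex nor how many animals went into each library. Each group has 1 library, so differences have no replicate check and were not tested.

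S100 proteins are small calcium-binding proteins that mostly act as dimers. S100a8 and S100a9 encode the subunits of calprotectin, which fills the cytosol of neutrophils, binds zinc and manganese away from microbes, and signals through Tlr4 and Ager when it is released. S100a4 and S100a6 are expressed by many motile or proliferating cells, among them monocytes and fibroblasts. S100a4 binds non-muscle myosin, and S100a6 (calcyclin) binds annexins and the calcyclin-binding protein Cacybp.

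The distraction library kept 4037 cells with 31202493 unique molecules (UMIs) and a median of 4161 UMIs per cell, and the sham library kept 5183 cells with 29488955 UMIs and a median of 3033. Cells were named by gates on marker genes that hold no S100 gene. Blood and marrow types made up most cells, with 1369 and 3070 B-lineage-gated, 1232 and 759 neutrophil-gated, 413 and 305 erythroid-gated and 219 and 199 monocyte-gated cells in distraction and sham. The tissue's own cells were few, at 55 and 24 fibroblast-gated, 10 and 10 osteoblast-gated and 31 and 16 endothelial-gated cells. The gates left 379 and 432 cells unnamed, and 96 and 177 cells that met unrelated gates were kept apart as mixed. The tables share 22 cell labels. The shallowest deposited cell had 125 UMIs in distraction and 920 UMIs in sham, so shallow cells entered the libraries differently. All 4 members passed the minimum of 30 counts over both libraries in all cells, in neutrophil-gated and in monocyte-gated cells.

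The members sit in 1 cluster on rat chromosome 2, where S100a3 lies beside S100a4, S100a5 separates S100a4 from S100a6, and S100a7a separates S100a6 from S100a8, with S100a9 next in the order of the RefSeq gene table. The promoters are shown because S100a9 and the pair S100a4 and S100a6 had different cell-type patterns although they neighbour each other. RefSeq promoter sequences were matched by symbol for 3 members. Each is the 250 bases before the gene's start on assembly GRCr8, which is not the build of the count tables (Rnor 6.0), 5′ to 3′ on the gene's strand, with the TATA box word TATAAA in capitals. They are S100a9 at chr2:178490623-178490872 on the minus strand, S100a4 at chr2:178388279-178388528 on the plus strand and S100a6 at chr2:178398287-178398536 on the plus strand.
S100a9: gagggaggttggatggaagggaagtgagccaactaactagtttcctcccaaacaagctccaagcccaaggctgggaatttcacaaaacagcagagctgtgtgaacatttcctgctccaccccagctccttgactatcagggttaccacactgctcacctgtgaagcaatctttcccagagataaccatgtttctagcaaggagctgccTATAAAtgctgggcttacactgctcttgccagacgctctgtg
S100a4: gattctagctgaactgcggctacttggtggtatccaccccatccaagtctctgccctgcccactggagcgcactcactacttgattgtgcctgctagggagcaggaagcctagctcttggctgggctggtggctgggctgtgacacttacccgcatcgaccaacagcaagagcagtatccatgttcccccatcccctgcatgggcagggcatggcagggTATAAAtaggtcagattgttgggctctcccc
S100a6: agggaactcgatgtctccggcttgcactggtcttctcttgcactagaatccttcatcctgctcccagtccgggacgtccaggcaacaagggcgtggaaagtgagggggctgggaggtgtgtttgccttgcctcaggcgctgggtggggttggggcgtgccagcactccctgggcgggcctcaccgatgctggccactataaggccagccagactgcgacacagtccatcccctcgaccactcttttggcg
The word TATAAA was found in the S100a9 promoter from 42 to 37 bases before the start and in the S100a4 promoter from 31 to 26 bases before it, on the sense strand. It was not found in the S100a6 promoter. Of 33469 promoters of that length, 12.9% hold it on either strand. The C/EBP word TTNNGCAA (9.22% of promoters), the AP-1 word TGANTCA (6.34%) and the PU.1 word GAGGAAGT (2.04%) were searched on both strands too and did not occur in these 3 windows. These are matches of letters and were not set against any binding data.

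Each gene's level is its summed UMIs over a cell type, scaled to 1000000 UMIs of that type (CPM). It carries an exact 95% Poisson interval for counting error; the spread between animals, dissections and single cells is outside it. A ratio is distraction over sham with an exact conditional binomial 95% interval of the same scope, and was called at 1.5 or beyond in either direction. Levels of different genes are not compared, except as ratios of counts within a class.

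S100a8 and S100a9 were neutrophil genes in both libraries. S100a8 reached 68210 CPM in distraction and 63704 CPM in sham neutrophil-gated cells, with a mean of 468 and 359 UMIs per cell. S100a9 reached 66485 CPM in distraction and 59421 CPM in sham neutrophils. Together the genes gave 13.5% of all UMIs of distraction neutrophils and 12.3% of those of sham neutrophils. A UMI of S100a8 was present in 99.9% of distraction and 99.3% of sham neutrophils.

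Neutrophils held 95.3% of all S100a8 counts in distraction and 92.0% in sham, and 96.4% and 93.6% of all S100a9 counts. Next in order among named types, for both genes, came monocyte-gated cells, with S100a8 at 2206 CPM in distraction and 1245 CPM in sham, and S100a9 at 1301 and 511 CPM. Their intervals overlapped neither the neutrophil level nor the next class below. Cells that no gate named had S100a8 at 2861 CPM in distraction and 1887 CPM in sham, and held 1.65% and 2.03% of its counts. Further down the order, many neighbouring classes could not be separated. In sham, the S100a8 intervals of erythroid-gated (384 CPM), fibroblast-gated (382 CPM), macrophage-gated (379 CPM) and class II-gated cells (302 CPM) overlapped from each to the next. In distraction the same held for S100a8 from class II-gated (468 CPM) through B-lineage-gated (435 CPM) and endothelial-gated (399 CPM) to erythroid-gated cells (387 CPM). The lowest described class was mast and basophil-gated cells, at 214 CPM of S100a8 in distraction and 201 CPM in sham.

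**Figure D1:**
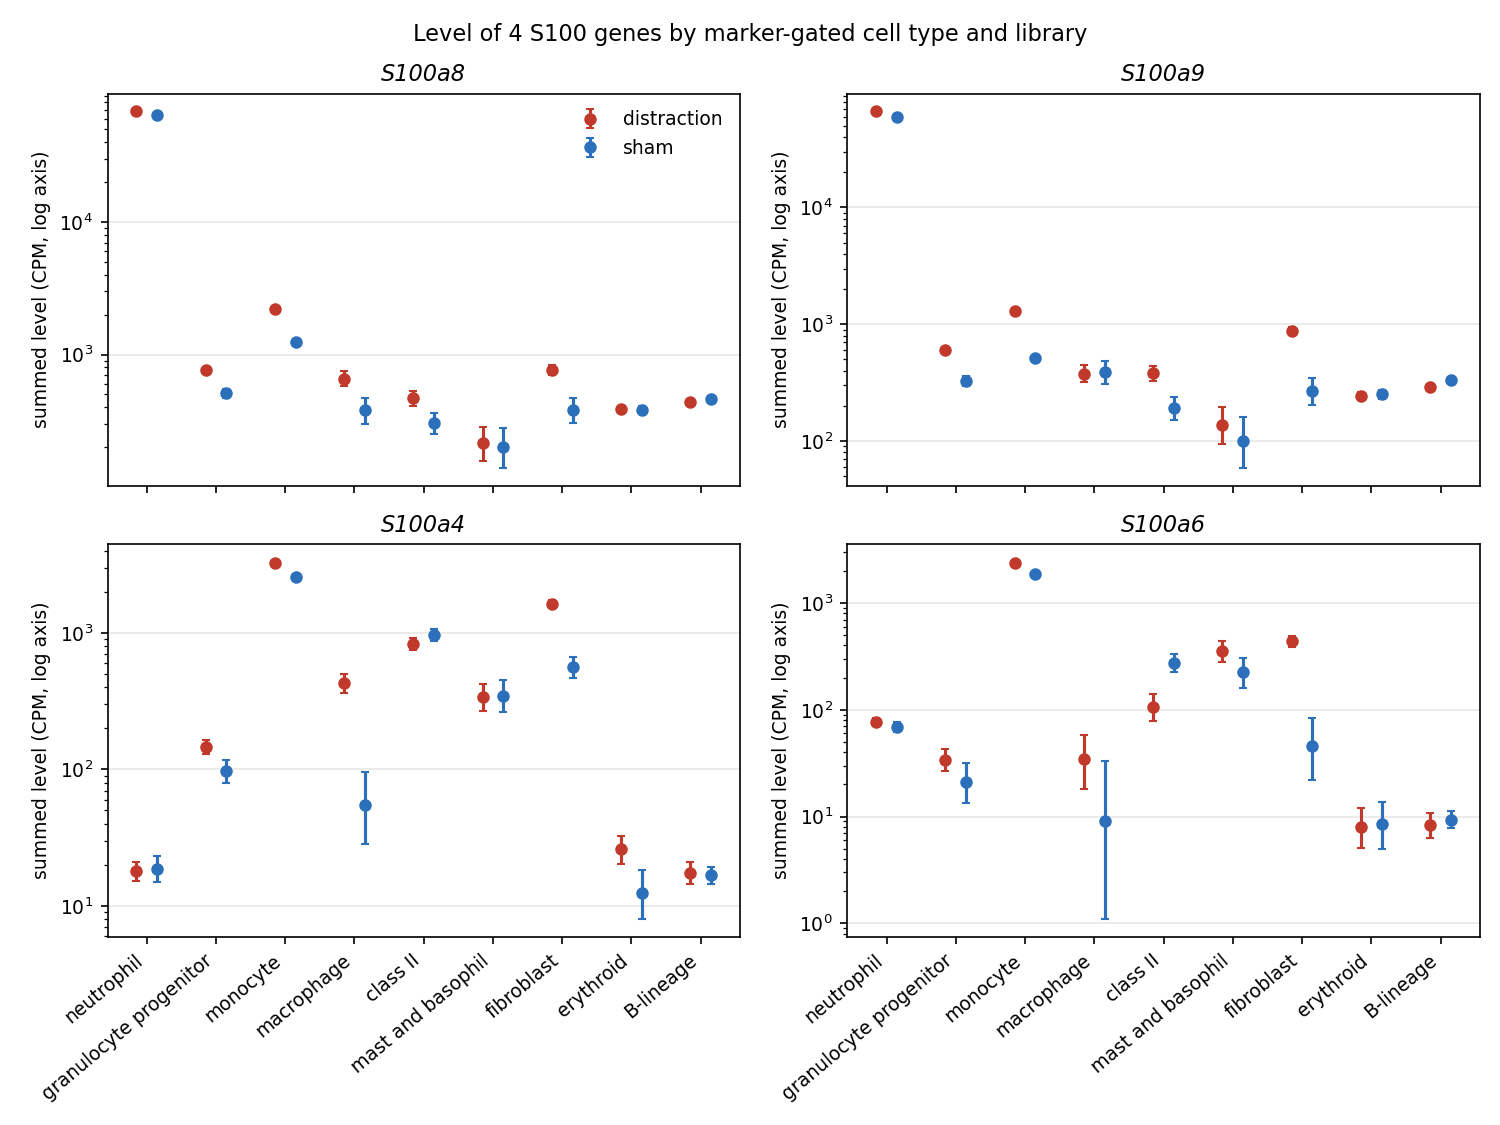
Summed level of each member in CPM (log axis) by marker-gated cell type, for types with at least 20 cells in both libraries, with distraction (red) left of sham (blue) and bars showing exact 95% Poisson intervals. S100a8 and S100a9 stand at 59421 CPM or above in neutrophils and at 2206 CPM or below in every other type drawn, and S100a4 and S100a6 are highest in monocytes.

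Within neutrophils the pair varied by stage. Stages were gated by granule and surface genes, which are made in a known order as neutrophils mature: defensins and other early granule genes first, then Ngp and Lcn2, then Mmp8 and Mmp9, then genes of the mature cell such as Il1r2 and Cxcr2. S100a8 was at 45871 CPM in the early stage, 105866 in the Ngp and Lcn2 stage, 58236 in the Mmp8 and Mmp9 stage and 28136 in the mature stage of the distraction library. The sham library gave 49678, 92802, 43126 and 22393 CPM in the same order. Both libraries thus peaked in the Ngp and Lcn2 stage.

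S100a9 had the same peak, with 39503, 100215, 70634 and 39003 CPM over the 4 stages in distraction and 38644, 82692, 55938 and 32441 CPM in sham. The balance between the calprotectin subunits shifted along the way. There were 1.16 S100a8 counts per S100a9 count in distraction and 1.29 in sham in the early stage, 1.06 and 1.12 in the Ngp and Lcn2 stage, 0.825 and 0.771 in the Mmp8 and Mmp9 stage, and 0.721 and 0.690 in the mature stage. The counting intervals of successive stages did not overlap in either library. Per cell the genes went together: both were present in 99.7% of distraction and 98.7% of sham neutrophils, and Spearman's rho between their CPM across cells was 0.90 over 1232 distraction cells and 0.877 over 759 sham cells. That is a description across cells that share a library and vary in stage and depth.

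**Figure D2:**
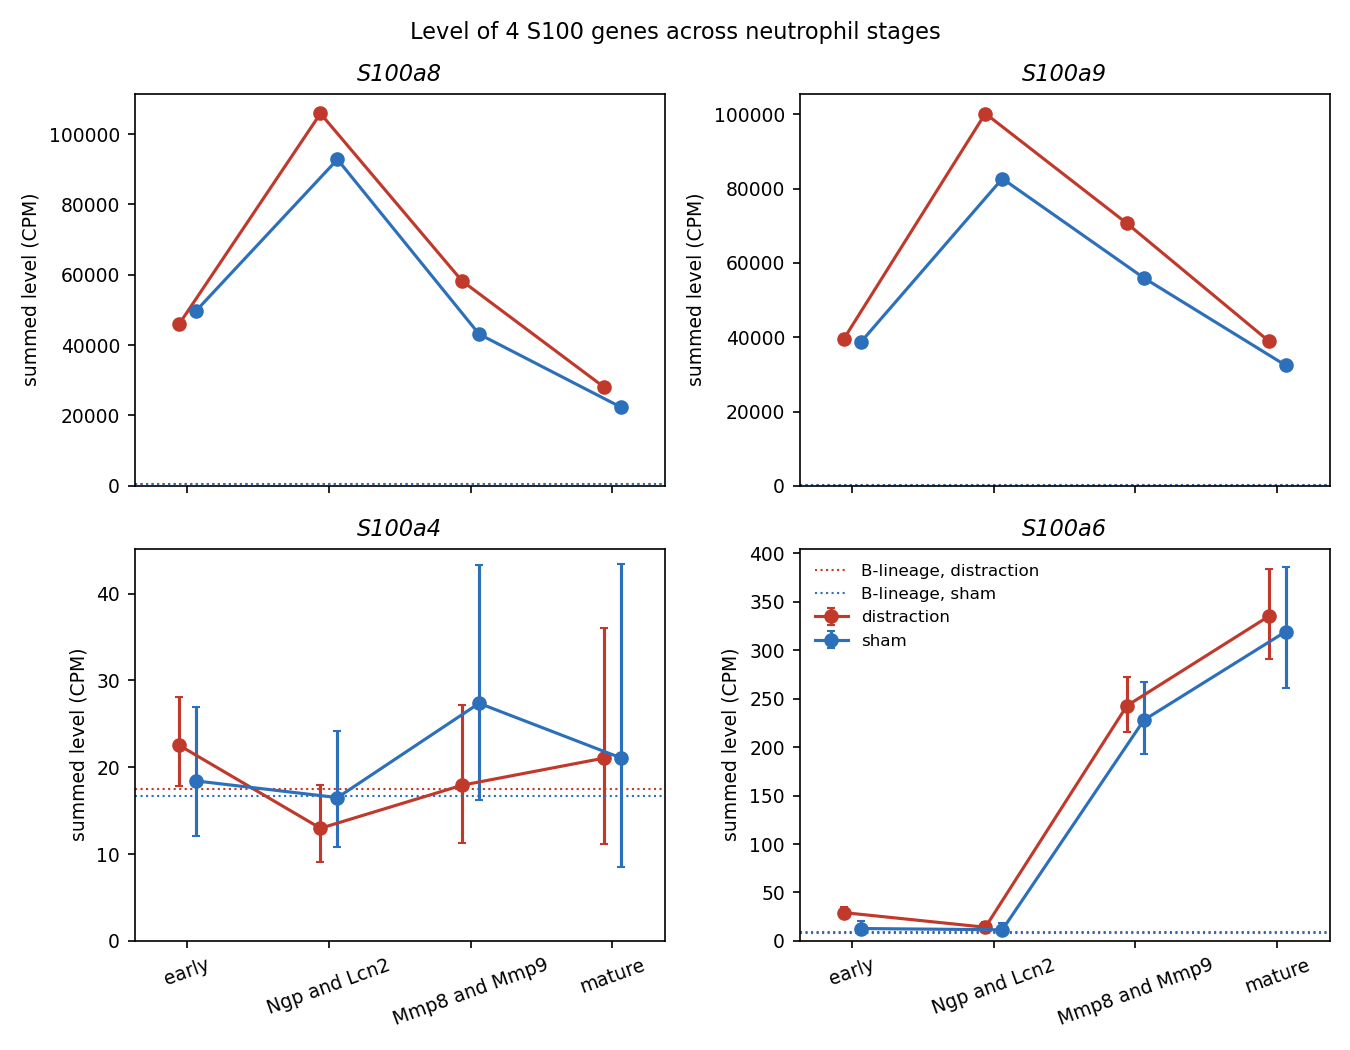
Summed level of each member in CPM (linear axes from 0) across 4 neutrophil stages, distraction (red) left of sham (blue), with exact 95% Poisson intervals and the B-lineage level of each library as dotted lines. S100a8 and S100a9 peak in the Ngp and Lcn2 stage in both libraries, S100a6 is at 228 to 335 CPM in the last 2 stages, and S100a4 stays near the B-lineage level throughout.

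Over all kept cells, each member was higher in distraction. S100a8 had 19386 CPM in distraction and 10038 CPM in sham, a log2 ratio of 0.95, and S100a9 had 18684 and 9204 CPM, a log2 ratio of 1.02. S100a4 had 604.7 CPM in distraction and 391.9 CPM in sham (ratio 1.54, 1.51 to 1.58), and S100a6 had 394 and 258 CPM (1.53, 1.49 to 1.57). All 4 members thus reached a ratio of 1.5, as did 8.4% of the 12935 genes tested over all cells in that direction. The median log2 ratio of those genes was -0.17.

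The neutrophil share of the libraries moved with the S100a8 and S100a9 difference. Neutrophils were 30.5% of distraction cells (29.1 to 32.0) and 14.6% of sham cells (13.7 to 15.6, exact Clopper-Pearson intervals), and 27.1% against 14.5% of UMIs, a ratio of 1.87. In all kept cells other than neutrophils, S100a4 was at 823 CPM in distraction and 455 CPM in sham and S100a6 at 512 and 290 CPM, so these genes differed outside neutrophils. S100a8 was there at 1250 and 944 CPM, and S100a9 at 928 and 694 CPM. Within neutrophils, the ratio of S100a8 was 1.07 (1.07 to 1.08) and that of S100a9 was 1.12 (1.11 to 1.12). S100a6 was at 76.8 CPM in distraction and 69.3 CPM in sham neutrophils, and S100a4 was at 17.9 and 18.7 CPM, with intervals of their ratios that include 1. None of the 4 members was called in neutrophils, where 5.26% of 8018 tested genes were called higher and 7.51% lower. The S100a4 value rests on 151 and 80 counts and passed the called ratio under other settings, with a log2 ratio of -0.83 at 1500 UMIs per cell, -0.71 as the mean of each cell's CPM and -0.62 with 1 more gate marker, against -0.07 as reported. The median depth was 4202 UMIs in distraction and 3945 in sham neutrophils, but 16518 and 12362 UMIs in the early stage. The early stage held 3459495 of 8451072 neutrophil UMIs in distraction and 1411258 of 4273122 in sham. Summed levels weigh cells by their UMIs, so this stage counts for more in the pooled distraction value.

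Stage by stage, the ratio of S100a8 was 0.923 in the early stage, 1.14 in the Ngp and Lcn2 stage, 1.35 in the Mmp8 and Mmp9 stage and 1.26 in the mature stage, and that of S100a9 was 1.02, 1.21, 1.26 and 1.20. Neither gene was called in any stage. S100a6 was called higher in the early stage, with a ratio of 2.29 (1.38 to 4.02) that rests on 1 distraction cell holding 68.3% of the counts. By comparison, 10.3% of tested genes were called higher and 7.72% lower in the early stage, 5.53% and 10.6% in the Ngp and Lcn2 stage, 5.23% and 12.8% in the Mmp8 and Mmp9 stage, and 9.62% and 10.7% in the mature stage. S100a4 was called lower in the Mmp8 and Mmp9 stage, at 17.9 CPM in distraction and 27.4 CPM in sham (0.655, 0.335 to 1.30), on 22 and 18 counts. By cell number the stages had similar shares of neutrophils. The early stage was at 15.5% in distraction and 16.1% in sham, and the mature stage at 19.3% and 17.1%. Of the 10 neutrophil genes listed for comparison, 9 were tested in neutrophils and 0 were called in either direction. Ngp was at 18389 CPM in distraction and 20134 CPM in sham, Lcn2 at 6918 and 8615 CPM, and RatNP-3b at 40802 and 32753 CPM.

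**Figure D3:**
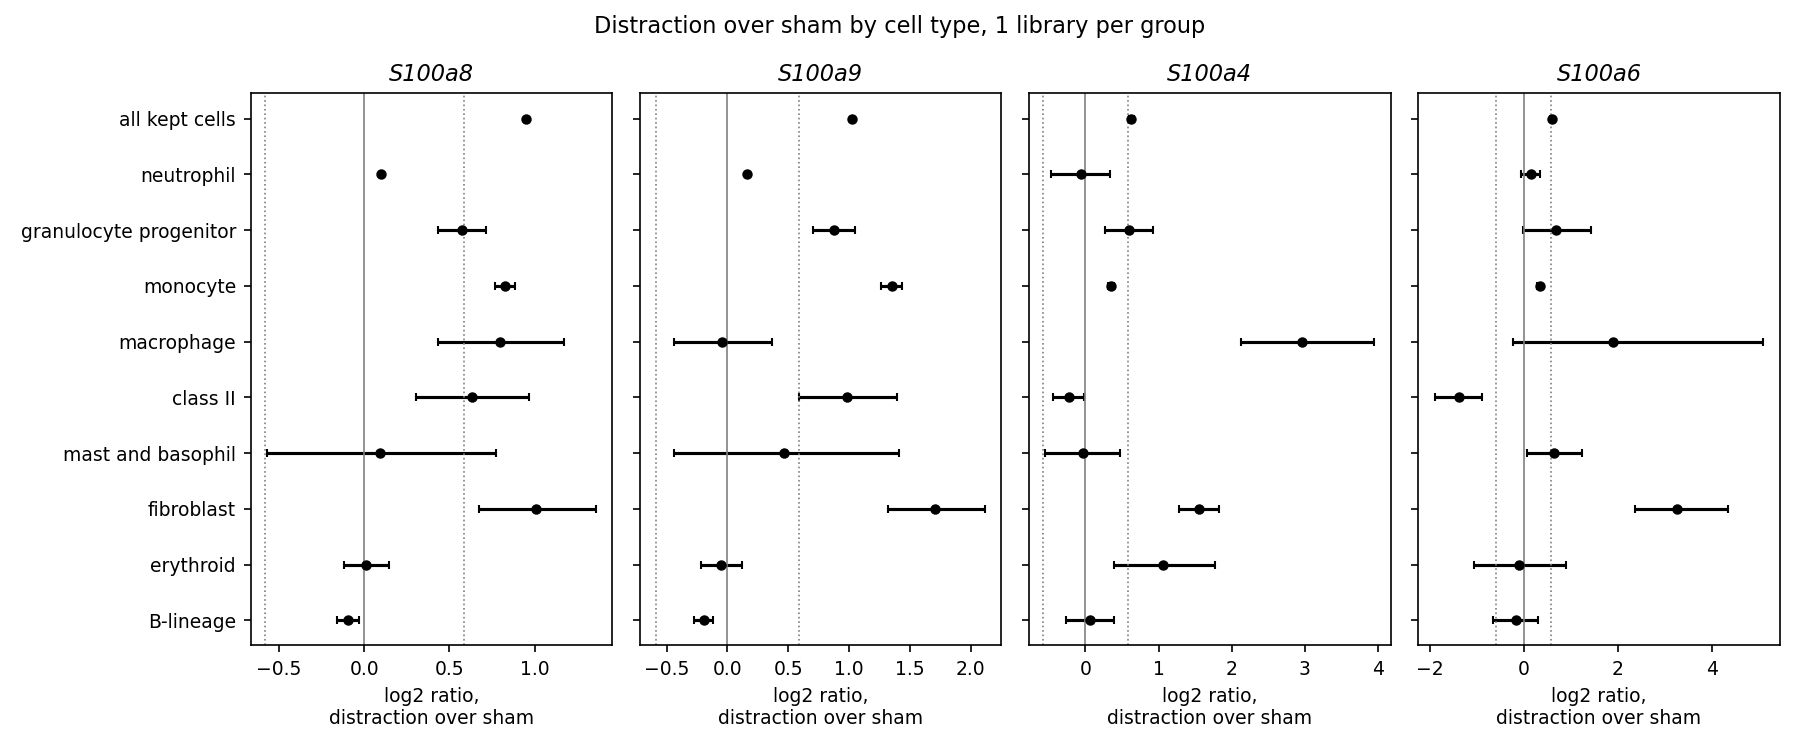
Log2 ratio of each member, distraction over sham, by cell type with exact 95% conditional binomial intervals for counting error. Dotted lines mark a ratio of 1.5 in either direction, and the horizontal scale differs by panel. For S100a8 and S100a9, neutrophils lie inside the dotted lines and all kept cells outside them.

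Monocytes, which circulate in blood and enter inflamed tissue, carried S100a8 and S100a9 at lower and uneven levels. Distraction over sham, the ratio was 1.77 (1.70 to 1.84) for S100a8 and 2.55 (2.40 to 2.70) for S100a9. Both were called, 2 of the 4 members, where 4.76% of 7690 tested genes were called higher and 5.7% lower. The counts were concentrated in few cells: the 22 distraction and 20 sham monocytes with the highest S100a9 held 63.4% of the gene's counts in distraction and 58.9% in sham. The median monocyte had 339 CPM of S100a9 in distraction and 207 CPM in sham, and 1235 and 906 CPM of S100a8.

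Neutrophil markers moved with this difference. Of 24 neutrophil gate markers in the tables, 14 could be tested in monocytes, 8 were called higher in distraction and 0 lower, and the summed level of all 24 was 6692 CPM in distraction and 5864 CPM in sham. Most of that was Fcnb, at 5235 and 4990 CPM in monocytes but only 14.2 and 17.6 CPM in neutrophils. Ngp was at 72.9 CPM in distraction and 39.2 CPM in sham monocytes, and Np4 at 296 and 112 CPM. In B-lineage cells Ngp was at 76.62 CPM in distraction and 89.98 CPM in sham, so monocyte Ngp was below that level in each library. Camp in distraction monocytes was above its B-lineage level, at 82.4 against 53.5 CPM. In sham monocytes Camp was below it, at 53.2 against 75.8 CPM. Ltf, Defa8 and Stfa3 were at 0 in both libraries, and Defa10 in sham. The part of these transcripts in the S100a8 and S100a9 difference was not tested. Leaving out the 2 distraction and 5 sham monocytes that held a neutrophil-restricted marker left the ratio of S100a8 at 1.77 and that of S100a9 at 2.44. Subtracting each library's B-lineage level, as an estimate of free RNA, gave an S100a8 ratio of 2.27 (1771 CPM in distraction, 781 CPM in sham). The S100a9 ratio was 5.67 (1010 and 178 CPM) and depends on the level subtracted, 291 CPM in distraction and 333 CPM in sham. The median sham monocyte, at 207 CPM, was below it. Monocytes were deeper than B-lineage cells, and in the deepest B-lineage depth class S100a9 was at 203 CPM in distraction and 263 CPM in sham.
The S100a8 to S100a9 count ratio in monocytes was 1.70 in distraction (1.63 to 1.76) and 2.44 in sham (2.29 to 2.59). It lay above that of every neutrophil stage in the same library. So did the ratio in B-lineage cells, 1.49 in distraction and 1.40 in sham, and in erythroid cells, 1.59 (1.44 to 1.75) and 1.52. The monocyte and erythroid intervals overlapped in distraction.

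Granulocyte progenitors, gated by Mpo, Elane, Prtn3, Ctsg and Ms4a3, had S100a8 at 760 CPM in distraction and 510 CPM in sham, and S100a9 at 599 and 326 CPM. S100a9 (ratio 1.84), S100a4 (1.51) and S100a6 (1.61) reached the called ratio, as did 6.04% of 6835 tested genes (6.6% were called lower), and S100a8 (1.49) did not. The interval of the S100a6 ratio, 0.993 to 2.70, includes 1, and 1 cell held 45.7% of the 70 S100a6 counts in distraction and 60.9% of the 23 in sham. Without the highest cell of each library the S100a6 ratio was 2.15 (1.02 to 5.05). The 24 neutrophil markers summed to 32859 CPM in distraction and 27256 CPM in sham progenitors, with 4 of the 13 tested called higher and 1 lower, and Ltf, Defa8, Stfa2 and Stfa3 at 0 in both. Of these cells, 32 of 68 in distraction and 23 of 56 in sham held a neutrophil-restricted marker. Without them S100a9 was at 157 CPM in distraction and 143 CPM in sham, a ratio of 1.10 (0.861 to 1.41). S100a8 stood at 262 and 206 CPM, a ratio of 1.27, S100a4 at 209 and 118 CPM, a ratio of 1.77, and S100a6 at 30.8 and 12.4 CPM, a ratio of 2.49 (1.18 to 5.88) on 36 and 9 counts. These S100a8 and S100a9 levels were below those of B-lineage cells, at 435 and 465 CPM of S100a8 and 291 and 333 CPM of S100a9. With all progenitors of the sham library, the S100a8 and S100a9 intervals overlapped those of sham B-lineage cells. The single highest cell held 34.7% of the S100a8 counts of distraction progenitors, and without the highest cell of each library the S100a8 ratio was 1.19.

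B-lineage and erythroid cells are not known to make S100a8 or S100a9, and their values serve as a measure of free RNA. S100a8 was at 435 CPM in distraction and 465 CPM in sham B-lineage cells and at 387 and 384 CPM in erythroid cells. S100a9 was at 291 and 333 CPM in B-lineage cells and at 244 and 252 CPM in erythroid cells. No member was called in B-lineage cells, where 2.52% of 10160 tested genes were called higher and 4.24% lower. Despite these low levels, 73.5% of distraction and 62.8% of sham B-lineage cells had at least 1 UMI of S100a8, at medians of 2860 and 2578 UMIs per cell, so a UMI of this gene does not mark a cell that expresses it. With each cell thinned to 1500 UMIs, which leaves out 71 distraction and 212 sham cells that are shallower, the shares were 48.7% and 39.9%.

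As a share of the neutrophil level, the B-lineage level of S100a8 was 0.637% in distraction (0.614 to 0.661) and 0.730% in sham (0.711 to 0.749). For S100a9 it was 0.438% and 0.560%. The 7 other genes drawn beside them lay around these values, from Ngp at 0.417% and 0.447% to the defensin gene RatNP-3b at 0.808% and 0.819%. Lyz2, which reached 23120 and 23824 CPM in monocytes, was above them at 1.16% and 1.33%, and Fcnb, which was low in neutrophils, was at 81.0% in distraction. Ltf reached 1.09 CPM at most in any type of at least 50 cells.
The shares differ between genes beyond counting error. The count ratio of S100a8 to S100a9 was 1.49 in distraction and 1.40 in sham B-lineage cells and 1.59 and 1.52 in erythroid cells, against 1.03 and 1.07 in neutrophils, so the pair did not keep the neutrophil ratio in these cells. Where these transcripts came from was not tested.

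In B-lineage cells split by depth into 4 classes of equal size, the mean number of S100a8 UMIs was 1.12 in the shallowest class and 3.64 in the deepest in distraction, and 1.004 and 3.64 in sham. The level was 649 CPM in the shallowest and 320 CPM in the deepest class in distraction, and 616 and 378 CPM in sham. The UMIs per cell thus went up with depth and the CPM went down.

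**Figure D4:**
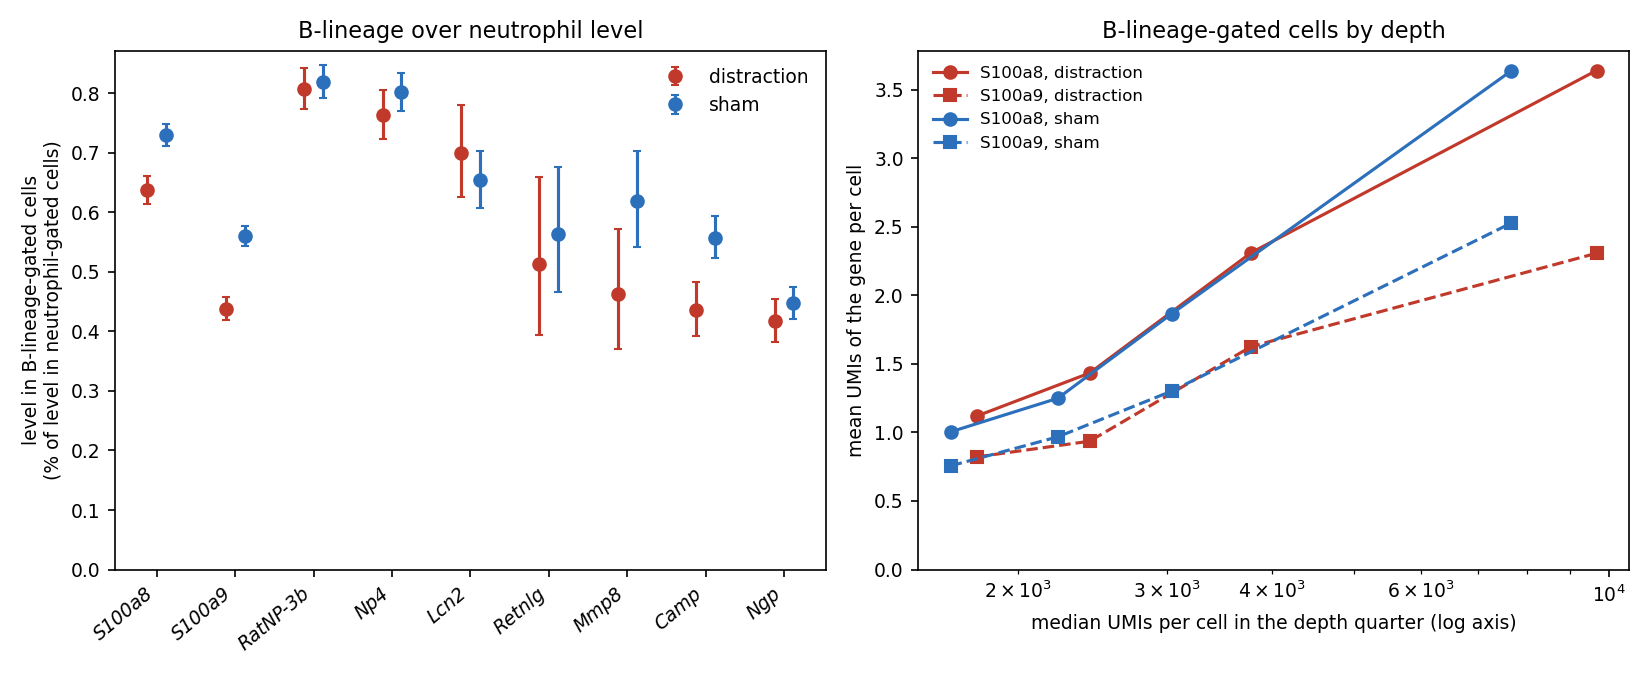
Left, level in B-lineage-gated cells as a percent of the level in neutrophil-gated cells of the same library, for S100a8, S100a9 and 7 other neutrophil genes, with exact 95% intervals, distraction (red) left of sham (blue). Right, mean UMIs of S100a8 and S100a9 per B-lineage-gated cell against the median depth (log axis) of 4 depth classes. The percentages run from 0.417% to 0.819%, and the mean UMIs go up from the shallowest to the deepest class in both libraries.

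S100a4 and S100a6 had another pattern, high in monocytes and near the B-lineage level in most neutrophils. S100a4 was at 3266 CPM in distraction and 2565 CPM in sham monocytes, and S100a6 was at 2377 and 1879 CPM. Monocytes, 5.42% of distraction and 3.84% of sham cells, held 61.7% and 63.4% of all S100a4 counts and 68.9% and 70.6% of all S100a6 counts. Cells that no gate named came next, with 17.2% and 20.4% of S100a4 and 15.2% and 14.95% of S100a6. S100a4 was present in 99.5% of monocytes of each library and S100a6 in 95.9% of distraction and 96.5% of sham monocytes. These genes were even across monocytes, since the 22 distraction and 20 sham cells with the highest S100a4 held 21.5% and 24.4% of its counts.

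In monocytes the ratio was 1.27 (1.24 to 1.31) for S100a4 and 1.26 (1.22 to 1.31) for S100a6, and neither was called. The count ratio of S100a4 to S100a6 in monocytes was 1.37 in distraction (1.34 to 1.41) and 1.36 in sham (1.32 to 1.41). Spearman's rho between them across monocytes was 0.534 over 219 distraction cells and 0.508 over 199 sham cells, as a description. The B-lineage level of S100a4 was 0.535% of the monocyte level in distraction and 0.652% in sham, and that of S100a6 was 0.352% and 0.499%. A UMI of S100a4 was present in 5.84% of distraction and 5.18% of sham B-lineage cells.

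Below monocytes, S100a4 in distraction stood at 1644 CPM in fibroblast-gated, 826 in class II-gated and 697 in T and NK-gated cells, where the last pair of intervals overlapped. In sham the order was class II-gated cells at 969 CPM and fibroblast-gated cells at 560 CPM, with intervals that did not overlap. The 15 sham T and NK-gated cells, too few to be placed in the order, were at 974 CPM (804 to 1169). Megakaryocyte-gated cells (12 in distraction, 8 in sham) had 1094 and 1782 CPM, and mural-gated cells (4 and 6), which wrap small vessels, had 1640 and 2113 CPM, on very few cells. S100a6 had a different second place in distraction, where 31 endothelial-gated cells were at 756 CPM, above fibroblasts with no overlap of intervals. The 16 sham endothelial-gated cells were at 886 CPM, with 59.8% of the counts in 1 cell, and mural-gated cells were at 656 CPM in distraction and 1108 CPM in sham. Mast and basophil-gated cells had S100a6 at 352 CPM in distraction and 224 CPM in sham (ratio 1.57, 1.05 to 2.38), the only member called there, where 12.8% of 2073 tested genes were called higher and 11.2% lower.

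The other types that gave few cells bear the same limits. S100a4 in macrophage-gated cells was at 429 CPM in distraction and 54.7 CPM in sham (ratio 7.84, 4.37 to 15.5). It was present in 9 of 28 distraction and 6 of 21 sham cells, and 1 distraction cell held 47.2% of the counts. Without the highest cell of each library the ratio was 6.16 (2.99 to 14.7). Of the 3 members with enough counts in macrophages, S100a4 and S100a8 (ratio 1.74) were called higher, where 17.8% of 2421 tested genes were called higher and 11.6% lower. One cell held 48.0% of the S100a8 counts of distraction macrophages and 57.8% of those of sham macrophages. The neutrophil markers summed to 1843 CPM in distraction and 1300 CPM in sham macrophages, with 3 of 7 tested called higher and 3 lower, and 11 and 14 of the 24 at 0. In erythroid cells S100a4 was at 25.9 CPM in distraction and 12.4 CPM in sham (2.09, 1.31 to 3.42), on 75 and 25 counts, the only member called there, where 4.12% of 7063 tested genes were called higher and 6.41% lower.

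Fibroblast-gated cells, which carry collagen genes such as Col3a1 (26323 CPM in distraction, 15732 CPM in sham), had the largest S100a6 ratio among types of at least 20 cells. S100a6 was at 438 CPM in distraction and 45.5 CPM in sham, on 307 and 10 counts, a ratio of 9.63 (5.17 to 20.3). S100a4 was at 1644 CPM in distraction and 560 CPM in sham, a ratio of 2.94 (2.44 to 3.57). All 4 members were called higher in fibroblasts, where 25.5% of 3850 tested genes were called higher and 11.6% lower, and the median log2 ratio of those genes was 0.15.

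The S100a6 counts were uneven. One distraction cell held 47.6% of them, and without the highest cell of each library the levels were 238 CPM in distraction and 28.2 CPM in sham, a ratio of 8.42 (3.78 to 23.3). Fibroblast-, osteoblast- and mural-gated cells pooled (69 in distraction, 40 in sham) had S100a6 at 375 and 105 CPM, a ratio of 3.56 (2.57 to 5.03). Of the 42 sham counts of that pool, 32 came from the 6 mural-gated cells. S100a6 was present in 49.1% of distraction fibroblasts (35.4 to 62.9) and 20.8% of sham fibroblasts (7.13 to 42.2), at median depths of 11466 and 7083 UMIs. At 1500 UMIs per cell, without the 3 distraction and 2 sham cells below that depth, the shares were 21.2% and 4.55%. S100a4 was present in 80.0% and 62.5% of fibroblasts, and at 1500 UMIs in 51.9% and 54.5%, so for S100a4 the share of cells with a UMI did not follow the higher CPM once depth was equal.

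The calprotectin difference in fibroblasts rested on a few cells. S100a8 was at 770 CPM in distraction and 382 CPM in sham, and S100a9 was at 875 and 268 CPM. Of the 24 neutrophil markers, 9 were tested in fibroblasts, 5 were called higher and 1 lower, and their sum was 1275 CPM in distraction and 610 CPM in sham. Mmp8 was at 106 CPM in distraction and 13.7 CPM in sham. Of the 24, 3 (Ltf, Defa8 and Defa10) were at 0 in distraction and 13 in sham. A neutrophil-restricted marker was held by 5 of 55 distraction and 0 of 24 sham fibroblasts. Without those cells S100a8 was at 370 CPM in distraction and 382 CPM in sham (ratio 0.967, 0.750 to 1.26), and S100a9 was at 237 and 268 CPM (0.883, 0.648 to 1.22). These levels are below those of B-lineage cells of the same library. The same exclusion left S100a4 at 1607 CPM in distraction and 560 CPM in sham, and S100a6 at 456 and 45.5 CPM. Its markers were chosen to be low in monocytes, the type with the highest S100a4 and S100a6. For these genes it therefore does not bear on monocyte RNA, and no exclusion by monocyte markers was made in any type.

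Class II-gated cells held markers from a list of class II and dendritic genes, at least 1 of them outside the class II genes. They expressed the antigen-presentation genes RT1-Da and Cd74. The B-cell gene Cd79b was at 287 CPM in distraction and 295 CPM in sham, against 894 and 869 CPM in B-lineage cells. S100a6 in class II-gated cells went the other way. It was at 107 CPM in distraction and 277 CPM in sham, a ratio of 0.385 (0.269 to 0.543), called where 10.5% of 4070 tested genes were called lower. A UMI was present in 7 of 71 distraction and 15 of 65 sham cells, and without the highest cell of each library the ratio was 0.283. S100a4 in these cells was at 826 CPM in distraction and 969 CPM in sham, and its ratio of 0.853 (0.738 to 0.985) was not called. S100a8 was at 468 CPM in distraction and 302 CPM in sham, and S100a9 at 378 and 191 CPM. Both sham levels were below those of sham B-lineage cells, at 465 and 333 CPM. In distraction the S100a8 interval overlapped that of B-lineage cells, and the S100a9 interval lay above theirs. S100a8 (1.55) and S100a9 (1.98) were called higher in class II-gated cells, against 13.4% of genes. Without the highest cell of each library these ratios were 1.25 and 1.53. The 24 neutrophil markers summed to 1092 CPM in distraction and 1022 CPM in sham, with 3 of 9 tested called higher and 2 lower, and 9 and 8 of them at 0, among them Ltf, Cd177 and Cxcr2. Without the 1 distraction and 2 sham cells that held a neutrophil-restricted marker, the ratios of S100a8 and S100a9 were 1.17 and 1.29, and that of S100a6 was 0.482.

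S100a6 was also found late in neutrophil maturation, in few cells. Its level was 29.2 CPM in the early stage, 14.05 in the Ngp and Lcn2 stage, 243 in the Mmp8 and Mmp9 stage and 335 in the mature stage of the distraction library, and 12.8, 11.4, 228 and 319 CPM in sham. The B-lineage level of S100a6 was 8.36 CPM in distraction and 9.37 CPM in sham, so the last pair of stages stood far above it and the Ngp and Lcn2 stage close to it. S100a4 stayed between 12.97 and 22.5 CPM in distraction and between 16.5 and 27.4 CPM in sham over the 4 stages, near its B-lineage level of 17.5 and 16.7 CPM.

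In the last 2 stages together, 44 of 609 distraction cells (7.22%, 5.30 to 9.58) and 26 of 338 sham cells (7.69%, 5.09 to 11.1) had at least 3 UMIs of S100a6. Those cells held 93.9% of the gene's counts in distraction and 88.7% in sham, with up to 36 and 32 UMIs in a cell, while 536 and 288 cells had none. Were the counts spread in proportion to each cell's depth, 54.6% of distraction and 51.8% of sham cells would hold a UMI, against 11.99% and 14.8% observed. The cells with 3 or more UMIs were not deeper, at medians of 2355 UMIs in distraction and 2561 UMIs in sham, against 2892 and 2823 UMIs in cells with none.

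Ngp, S100a8 and S100a9 were lower in the S100a6 cells than in cells with none. The cells were split by their S100a6 counts after the values were seen, so what follows describes them and no more. Mature-stage cells were 21 of 44 with 3 or more UMIs and 205 of 536 with none in distraction. In sham they were 14 of 26 and 108 of 288. The part of the stage mix in these differences was not tested. Ngp was at 375 CPM in cells with 3 or more UMIs and 4521 CPM in cells with none in distraction, and at 256 and 3284 CPM in sham. S100a8 was at 27771 against 49593 CPM in distraction and at 17233 against 38075 CPM in sham. S100a9 was at 42902 against 61452 CPM in distraction and at 31413 against 49538 CPM in sham.
Il1r2, which encodes a decoy receptor for interleukin-1, had ratios of 1.13 (1.04 to 1.24) in distraction and 1.29 (1.16 to 1.44) in sham, and S100a11 was close to even at 0.965 and 1.07. Among 685 genes at 200 CPM or more, the lipid-droplet gene Plin2 was higher in the cells with S100a6 of both libraries, with ratios of 1.92 in distraction and 2.47 in sham, as were Ppp4r3b (2.96 and 2.12), Srpk1 (2.41 and 2.03), Pstpip1 (1.91 and 1.78) and Ddit3 (1.82 and 1.85). Lcn2, Cybb, Plbd1 and Ccpg1 followed Ngp among the lowest. The monocyte markers Csf1r and Vcan were each higher in the S100a6 cells of 1 library, on few counts. Csf1r had 7 counts in distraction cells with S100a6, at 64.1 CPM against 23.6 CPM in cells with none (ratio 2.72, 1.03 to 6.15), and 0 counts in sham, where cells with none had 20. Vcan had 1 count in distraction (ratio 1.26, 0.0296 to 8.54) and 4 in sham (10.3, 2.04 to 47.9). Fcnb, a neutrophil gate marker that was high in monocytes, had 3 and 2 counts, with ratios of 3.50 (0.640 to 12.7) and 1.84 (0.203 to 8.01). Cx3cr1, Ly86 and F13a1 had 0 counts in the cells with S100a6 and at most 2 in the cells with none, too few to compare. S100a4 and S100a10, both high in monocytes, had 4 and 2 counts in distraction cells with S100a6 and 1 and 3 in sham. Their ratios were 2.25 (0.571 to 6.45) and 1.44 (0.164 to 5.91) in distraction, and 0.613 (0.0148 to 3.81) and 2.27 (0.427 to 7.85) in sham. In monocytes there were 1.37 S100a4 counts per S100a6 count in distraction and 1.36 in sham. The part of monocyte RNA in the S100a6 counts was not tested.

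**Figure D5:**
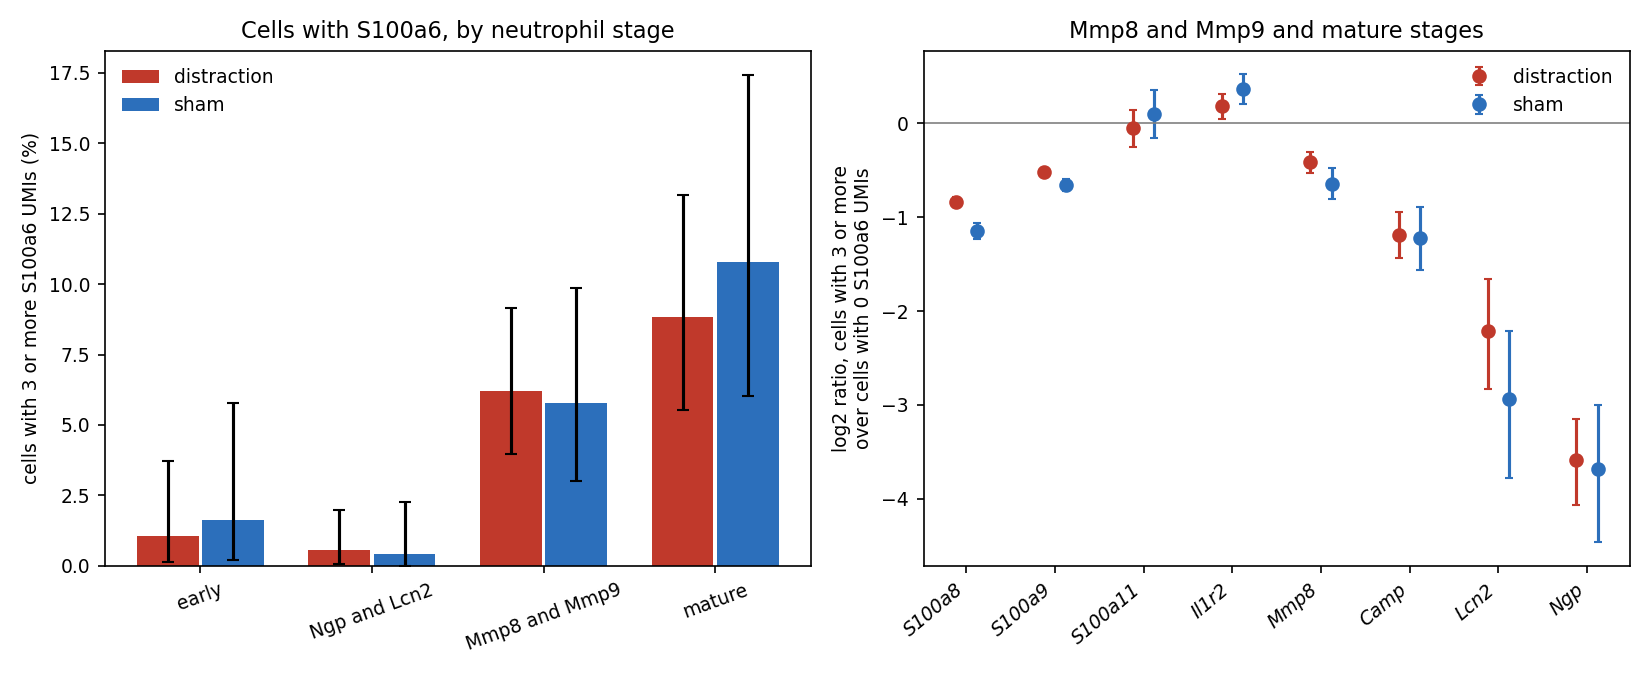
Left, share of neutrophils with 3 or more S100a6 UMIs by stage, with exact 95% Clopper-Pearson intervals, distraction (red) left of sham (blue). Right, log2 ratio of selected genes in cells with 3 or more S100a6 UMIs over cells with none, in the last 2 stages, with exact 95% conditional binomial intervals. The share is 8.82% in distraction and 10.8% in sham in the mature stage, and Ngp has the lowest ratio in both libraries.

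The list of related genes held 14, all S100 family genes but S100pbp, which encodes an S100-binding protein. Of the 14, 12 were in the tables, S100pbp among them, and few were expressed. S100a10, which pairs with annexin A2, followed S100a4 across cell types: it was at 1501 CPM in distraction and 1142 CPM in sham monocytes, 1405 and 1038 CPM in fibroblasts, and 11.9 and 13.1 CPM in neutrophils. S100a11 was shared between the groups of cells, at 1334 CPM in distraction and 1275 CPM in sham neutrophils and 503 and 409 CPM in monocytes. In neutrophils 1 of the 4 tested was called higher and 0 lower, and the 1 was S100pbp, at 3.19 CPM in distraction and 1.64 CPM in sham, so none of the S100 family genes tested beside the members was called there. In monocytes 0 of 3 were called. Of all tested genes, 5.26% were called higher and 7.51% lower in neutrophils, and 4.76% and 5.7% in monocytes. In fibroblasts 1 of 4 was called higher, S100a11 at 366 CPM in distraction and 168 CPM in sham, and 1 lower, S100a16 at 38.6 and 81.9 CPM, where 25.5% of all tested genes were called higher and 11.6% lower.

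In neutrophils 5.26% of all tested genes were called higher and 7.51% lower, and in monocytes 4.76% and 5.7%. Receptors and partners of S100 proteins also had few calls there. Of the 20 in the tables, 19 were tested in neutrophils with 0 called in either direction, and their median log2 ratio was -0.01. Tlr4, the receptor for calprotectin, was at 18.0 CPM in distraction and 17.3 CPM in sham neutrophils, and Ager at 16.5 and 13.8 CPM. In monocytes 1 of 17 was called, Tlr4, at 7.85 CPM in distraction and 3.85 CPM in sham, on 28 and 11 counts. The co-receptor Cd14 was at 3437 CPM in distraction and 3611 CPM in sham monocytes. In fibroblasts, where 25.5% of all tested genes were called higher, 4 of 14 were called higher and 0 lower, which is near that share. The 4 were the annexin genes Anxa1 (1417 CPM in distraction, 733 CPM in sham), Anxa2 (918 and 446 CPM) and Anxa11 (117 and 72.8 CPM), and the S100a6 partner Cacybp (153 and 68.3 CPM). Anxa1 was one of the most abundant neutrophil transcripts of the list, at 12699 CPM in distraction and 12792 CPM in sham.

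Transcription factors known to act on calprotectin genes in myeloid cells were not called in neutrophils (0 of 8) or monocytes (0 of 5). Of all tested genes, 5.26% were called higher and 7.51% lower in neutrophils, and 4.76% and 5.7% in monocytes. At such shares a list this short may hold no call. Cebpb was at 1855 CPM in distraction and 2418 CPM in sham neutrophils, Stat3 at 399 and 430 CPM, and Spi1, which encodes PU.1, at 315 and 284 CPM. In fibroblasts Cebpd was lower, at 203 CPM in distraction and 646 CPM in sham, and Klf5 was higher, at 57.1 and 31.9 CPM on 40 and 7 counts. The intervals of the ratios of S100pbp, Tlr4 in monocytes, Anxa11 and Klf5 include 1.

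Likeness of pattern was measured by Pearson's r of log2 CPM over 13 points, each 1 cell type in 1 library, among 3277 genes. The points share libraries and free RNA, so r is a description. For S100a8 the most alike were S100a9 (r = 0.993), Anxa11 (0.965), Tf (0.963), Plbd1 (0.949) and Cyp4f18 (0.947). For S100a9 they were S100a8, Pglyrp1 (0.973), Anxa11 (0.957), Ifitm6 (0.9503) and Tf (0.942). S100a4 was most like Sowahc (0.988), S100a10 (0.966), Ahnak (0.963), Oaf (0.957) and Cxcl1 (0.957). Among the genes most like S100a6 were Jag1 (0.961), Rapgef2 (0.960), Ptgs2 (0.958) and Smim3 (0.945). Among the members, r was 0.881 for S100a4 with S100a6. Across the pairs it was -0.22 for S100a8 with S100a4, -0.24 for S100a9 with S100a4, 0.214 for S100a8 with S100a6 and 0.177 for S100a9 with S100a6.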

How the data were processed

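Single-cell RNA of 1 distraction and 1 sham library was analysed from tables of molecule counts per gene and cell. Per the file headers, the deposited counts come from the BD WTA Rhapsody Analysis Pipeline 1.5.1. The submitters' processing notes name Rnor 6.0 and Seurat 3.6. The sources used here do not give the rule that called cells.

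Cells with at least 500 UMIs, 200 genes and under 25% mitochondrial UMIs were kept. A marker was held at 1 or more UMIs and at least 10% of the 20th highest cell's scaled value, and a gate needed 3 held markers. No doublet caller was run. The gate rule was set after marker levels, but not S100 values, had been seen, and the members and lists were chosen with earlier results of these data known. Counts were summed per library and type and scaled to 1000000 (CPM). Genes with 30 counts over both libraries were tested for a ratio of 1.5. Types of at least 20 cells were described in order, and smaller ones named as such. Named genes are the 4 members, listed partners, and the 5 genes most alike to each member among those at 100 CPM or more in types of at least 50 cells (pseudocount 1 CPM), of which 1 is not reported here. Neutrophil-restricted markers are the 20 gate markers whose monocyte level is below 10% of the neutrophil level. Shares were also computed with cells thinned to 1500 UMIs. Other genes, and the split of cells by S100a6, were chosen after their values were seen. Simulated counts were used to test the code for ratios and intervals; differences between the libraries were not tested. Python 3.11.15, numpy 2.4.6, scipy 1.17.1, pandas 2.3.3, scanpy 1.11.5 and leidenalg 0.10.2 were used.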

Additional observations from a re-analysis of the deposited data

Results flagged for a closer look

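The ratio of S100a6, distraction over sham, pointed in opposite directions in a pair of gated cell types. In fibroblast-gated cells the log2 ratio was 3.27, with 438 CPM in distraction and 45.5 CPM in sham. Pooled with osteoblast- and mural-gated cells, it was 1.83. In class II-gated cells it was -1.38, with 107 CPM in distraction and 277 CPM in sham. The difference between these ratios was not tested, since each group has 1 library and cells are not replicates.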

How the results depend on the processing

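No paired analysis was possible because each group has 1 library. Depth, cell number and counting error limit every value, and differences between animals cannot be seen.

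The 16 main results, the log2 ratios of the members over all cells and in neutrophils and the log2 of neutrophil over B-lineage level (S100a8, S100a9) or monocyte over B-lineage level (S100a4, S100a6) in each library, were recomputed under 107 alternatives, of which 57 moved them by less than counting error. Gate and cluster settings do not touch the all-cell values. As reported, the neutrophil log2 ratios were 0.10 for S100a8, 0.16 for S100a9, -0.07 for S100a4 and 0.15 for S100a6. The source over B-lineage values in distraction and sham were 7.29 and 7.10 for S100a8, 7.84 and 7.48 for S100a9, 7.55 and 7.26 for S100a4, and 8.15 and 7.65 for S100a6. No all-cell log2 ratio changed sign, and the neutrophil ratios of S100a8 and S100a9 stayed below 1.5 under every alternative. Their log2 ratios lay between 0.10 and 0.19 and between 0.16 and 0.25.

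The values that follow are log2 ratios. With the B-lineage level subtracted, the all-cell log2 ratios of S100a8 and S100a9 were 0.99 and 1.05. S100a4 in neutrophils gave no value because it was not above the B-lineage level. With every deposited cell kept, the all-cell log2 ratios of S100a8 and S100a9 were 0.93 and 1.0. With the mean of each cell's CPM, the all-cell log2 ratios were 1.17 for S100a8, 1.25 for S100a9, 0.75 for S100a4 and 0.84 for S100a6. The neutrophil log2 ratios were then 0.18, 0.25 and -0.71 for S100a8, S100a9 and S100a4. Neutrophil over B-lineage gave a log2 of 6.94 and 6.75 for S100a8 and 7.56 and 7.20 for S100a9. Thinned to 1500 UMIs, all cells gave log2 ratios of 1.19, 1.26, 0.72 and 0.75 and neutrophils 0.19 and 0.25, with S100a4 at -0.83. Scaling without mitochondrial, ribosomal, haemoglobin and immunoglobulin genes gave 0.94 for S100a8 over all cells and 0.17 for S100a9 in neutrophils. Scaling without the members and the neutrophil markers gave 1.02, 1.09, 0.69 and 0.68 over all cells and 0.14 and 0.21 for S100a8 and S100a9 in neutrophils.

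Leiden clusters (28) named 1214 distraction and 763 sham neutrophils, 1197 and 732 of them also gated. They gave neutrophil log2 ratios of 0.17 for S100a8 and 0.23 for S100a9. In log2, neutrophil over B-lineage was 7.17 and 6.99 for S100a8 and 7.70 and 7.31 for S100a9. Monocyte over B-lineage was 6.70 for S100a4 in sham. One marker fewer gave neutrophil log2 ratios of 0.14 and 0.20, and over B-lineage 7.14 and 7.22 for S100a8 and 7.61 and 7.62 for S100a9. One marker more gave log2 ratios of 0.12, 0.17, -0.62 and -0.14 in neutrophils. Over B-lineage it gave 6.98 for S100a8 and 7.37 for S100a9 in sham, and 7.93 for S100a4 in distraction. Alternatives chosen after seeing the data left out single cells, shared labels or cells with a neutrophil-restricted marker in 5 smaller types, or subtracted the B-lineage level in monocytes. Of 64 such values, 54 moved by less than counting error, 8 moved by more and 2 called values changed sign. Among the 8, the log2 ratio of S100a9 in macrophages went to 0.52 without the highest cell of each library, against -0.04 with it. Without the marker cells, the fibroblast log2 ratios of S100a8 and S100a9 turned to -0.05 and -0.18. The neutrophil ratio of S100a4, a gene near its B-lineage level there, thus passed the called ratio under thinning, per-cell means and 1 marker more. Its log2 ratio ranged from -0.83 to 0.29 over 10 alternatives, and that of S100a6 from -0.14 to 0.30 over 11. The cause of the other movements was not tested.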
